A study of Mus musculus with 12 samples.

Results

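The macrophage identity genes described here were 10 genes chosen by symbol, namely *Csf1r*, *Adgre1*, *Cd68*, *Lyz2*, *Mertk*, *Spi1*, *Ptprc*, *Cd53*, *Laptm5* and *Mpeg1*. All 10 were found among the 10697 genes of the table. The cells were wild-type primary mouse adult fibroblasts (MAFs), grown out of biopsies of C57BL6/j mice in high-glucose medium with serum. One group of 6 libraries was treated with 100 µM thymol, a phenolic monoterpene of thyme, for 24 h, and the other group of 6 received the solvent DMSO for the same time. Thymol had been dissolved in DMSO, so both groups were exposed to the solvent. The age of the mice was not given in the sources used here, and neither was whether the 6 libraries of a group came from separate animals or cultures, so the p-values below measure the spread between these libraries, which may be technical. Transcripts were read by QuantSeq, which sequences the 3′ end of polyadenylated RNA. A transcript gives about 1 read whatever its length, and levels were therefore not divided by transcript length. Values are log2 CPM, that is, the log2 of a gene's reads after libraries were brought to the same total. An error given with a level is the SD over the 6 libraries of its group, and one given with a log2 fold change (thymol minus DMSO) is its SE. Adjusted p-values are those of limma, with Benjamini-Hochberg adjustment over all 10697 genes, and a gene passed where this value was under 0.05.

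Macrophages are phagocytes of the myeloid lineage that live in almost every tissue, skin and muscle included. The transcription factor PU.1, encoded by *Spi1*, drives their development and switches on many genes of the lineage, among them *Csf1r*. CSF1R is the receptor for the growth factors CSF1 and IL-34 and keeps macrophages alive and dividing. Fibroblasts secrete CSF1 and do not express these 10 genes at a level typical of myeloid cells, which is why the genes are used to recognise macrophages in mixed tissue.

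The cultures were labelled as fibroblasts, and the libraries held transcripts of fibroblast marker genes and of macrophage identity genes side by side. Of 22 fibroblast marker genes 20 were measured, led by *Sparc* at 12.32 ± 0.034 log2 CPM, *Col1a1* at 11.95 ± 0.071 and *Col1a2* at 11.71 ± 0.058 with DMSO. The macrophage identity genes were measured in every library, with no fewer than 482 reads for any of them in any library. In such bulk RNA, fewer cells of a type and less RNA per cell cannot be told apart. Read totals recovered from the table ranged from 5435985 to 9049796 per library. Read numbers speak to counting error only, since PCR copies of a transcript are counted as separate reads. Thymol replicate 1 stood highest of its group for *Lyz2*, *Cd68*, *Laptm5*, *Csf1r* and *Ptprc* and lowest for *Mpeg1*, *Spi1* and *Mertk*. The log2 fold changes of *Csf1r*, *Cd68* and *Lyz2* are given below with and without it. Without it, that of *Mpeg1* was 0.23, *Mertk* 0.19, *Spi1* -0.019, *Laptm5* -0.052 and *Ptprc* -0.087.

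In the DMSO libraries each of the 10 genes lay above at least 80.1% of all genes in level. *Lyz2*, which encodes lysozyme M, a bacterial wall-digesting enzyme of myeloid cells, was the fourth most abundant transcript of the whole table. Its level was 13.61 ± 0.059 log2 CPM with DMSO, a mean of 88393 reads per library, or 1.25% ± 0.044 of all reads. The other 9 genes together took 0.264% ± 0.0032 of the reads. The median level of all genes was 5.02 log2 CPM and that of the 10 genes was 7.85.

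**Figure D1:**
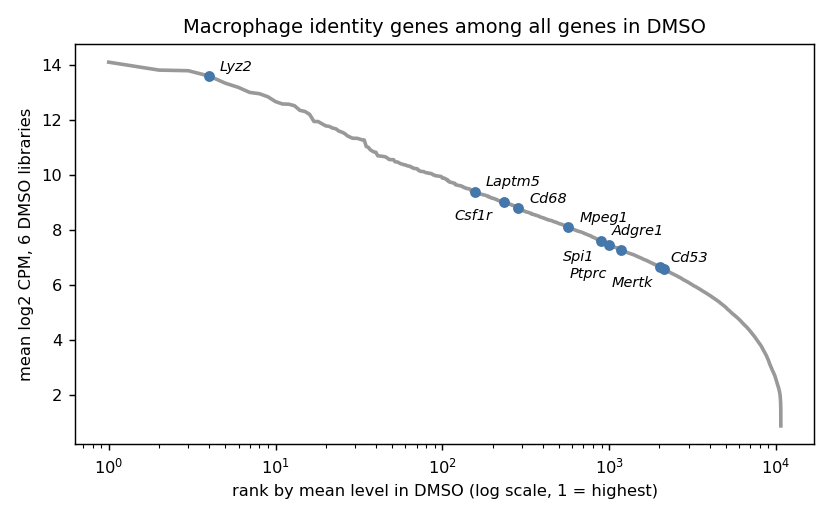
All 10697 genes ranked by mean level in the 6 DMSO libraries (grey line, horizontal log axis, level in log2 CPM on the vertical axis), with the 10 macrophage identity genes as blue points. *Lyz2* stood at rank 4, and the lowest of the 10, *Mertk*, at rank 2125.

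Below *Lyz2* came 3 genes near 9 log2 CPM. *Laptm5*, a lysosomal membrane protein of blood cells, was at 9.40 ± 0.070 log2 CPM (rank 156). *Csf1r*, the CSF1 receptor, was at 9.02 ± 0.12 (rank 233), and *Cd68*, which encodes the late endosomal glycoprotein macrosialin, was at 8.80 ± 0.089 (rank 286). *Mpeg1*, encoding the pore-forming protein perforin-2, was at 8.10 ± 0.076 log2 CPM. Next in order were *Adgre1*, the adhesion receptor known as F4/80, at 7.61 ± 0.16 log2 CPM, *Spi1* at 7.47 ± 0.11 and *Ptprc*, the leukocyte phosphatase CD45, at 7.29 ± 0.16. The tetraspanin gene *Cd53* was at 6.65 ± 0.068 log2 CPM and *Mertk*, a receptor kinase for the uptake of dead cells, at 6.58 ± 0.16. Within libraries, 8 of the 9 neighbouring pairs in this order kept it in 6 of 6 DMSO libraries, the same libraries whose means set the order, so this is a description with no test. *Cd53* and *Mertk* were the exception. *Cd53* was the higher in 4 of 6 libraries, by 0.071 ± 0.13 log2 CPM (SD), so these neighbours did not differ beyond their spread.

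Reads of *Lyz2* could be shared with its neighbour *Lyz1*, which lies next to it on chromosome 10 on the same strand. In the GENCODE vM21 transcripts, 21.9% of the 50-base words in the last 300 bases of *Lyz2* also occurred in *Lyz1*, while the other 9 genes shared 0 such words with any other gene. *Lyz1* was measured at 4.41 ± 0.33 log2 CPM with DMSO, a mean of 152.5 reads per library. How the counting divided shared reads was not tested. *Csf1r*, *Mertk* and *Ptprc* each overlap a further annotated gene on their own strand (*Mir6983*, *Gm23172* and *A130071D04Rik*), so reads in the overlaps cannot be assigned with certainty.

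On genome build GRCm38 the 10 genes lay on 9 chromosomes. *Mpeg1* spans chr19:12460779-12465283 on the plus strand, *Cd68* chr11:69664213-69666153 on the minus strand, *Cd53* chr3:106759921-106790149 on the minus strand and *Lyz2* chr10:117277331-117282321 on the minus strand. *Spi1* and *Mertk* both lie on chromosome 2. For 7 of the 10 genes a window from 250 bases before to 50 bases after a RefSeq transcription start was at hand (GRCm38.p6), and *Csf1r*, *Adgre1* and *Spi1* had none. PU.1 binds a purine-rich core, GAGGAA, which was searched on both strands together with the longer word GAGGAAGT that contains it. GAGGAA occurred in the windows of 4 of the 7 genes, *Cd53*, *Cd68*, *Laptm5* and *Ptprc*, and in 28.3% of all 32851 windows. GAGGAAGT occurred in that of *Cd53* alone and in 3.20% of all windows. Such a match is a description of the letters and not evidence of binding. Shown here are *Cd53*, the one window with the longer word, and *Cd68* and *Mpeg1*, whose transcripts had the largest positive differences with thymol. The sequences are on the gene's strand, 5′ to 3′, and capitals mark the words, with TTCCTC and ACTTCCTC as their forms on the opposite strand.
Cd53, chr3:106790100-106790399, minus strand: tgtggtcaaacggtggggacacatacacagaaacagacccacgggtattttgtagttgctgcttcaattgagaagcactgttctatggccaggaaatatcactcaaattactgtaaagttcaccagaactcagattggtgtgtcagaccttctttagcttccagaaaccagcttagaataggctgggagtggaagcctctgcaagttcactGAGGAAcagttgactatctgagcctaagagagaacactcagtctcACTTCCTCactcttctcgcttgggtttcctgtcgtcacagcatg
Cd68, chr11:69666121-69666420, minus strand: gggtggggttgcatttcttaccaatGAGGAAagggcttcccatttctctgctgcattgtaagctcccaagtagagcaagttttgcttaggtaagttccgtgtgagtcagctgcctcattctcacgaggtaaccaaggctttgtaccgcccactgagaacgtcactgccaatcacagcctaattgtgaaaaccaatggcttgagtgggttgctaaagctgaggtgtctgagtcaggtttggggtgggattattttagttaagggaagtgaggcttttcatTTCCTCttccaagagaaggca
Mpeg1, chr19:12460520-12460819, plus strand: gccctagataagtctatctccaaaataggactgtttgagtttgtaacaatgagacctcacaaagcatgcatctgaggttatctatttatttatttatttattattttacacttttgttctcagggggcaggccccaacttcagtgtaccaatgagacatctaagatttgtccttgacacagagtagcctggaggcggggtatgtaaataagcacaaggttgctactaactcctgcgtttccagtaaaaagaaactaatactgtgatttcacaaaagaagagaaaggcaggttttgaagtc
In *Cd53* the word GAGGAA began 39 bases before the start, and in *Cd68* 225 bases before it. The window of *Mpeg1* held neither word, which says only that these letters are not in that window.

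The presence of the 10 genes was set beside marker lists of other cells. Of 30 genes shared by most leukocytes 29 were measured, with a median of 5.98 log2 CPM in DMSO. *Cd44*, an adhesion receptor that fibroblasts also carry, was the highest at 9.64 ± 0.068 log2 CPM. *Cybb*, the catalytic subunit of the phagocyte NADPH oxidase, followed at 8.96 ± 0.13. Of 47 distinct marker genes of T cells, B cells, NK cells, neutrophils, mast cells and dendritic cells, 1 was measured. That was the neutrophil gene *S100a8*, at 3.53 ± 0.38 log2 CPM with DMSO, below the median of all genes. Genes under the authors' minimum of 30 reads in 6 libraries were removed before deposit, so a marker that was not measured may have been present at a low level.

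**Figure D2:**
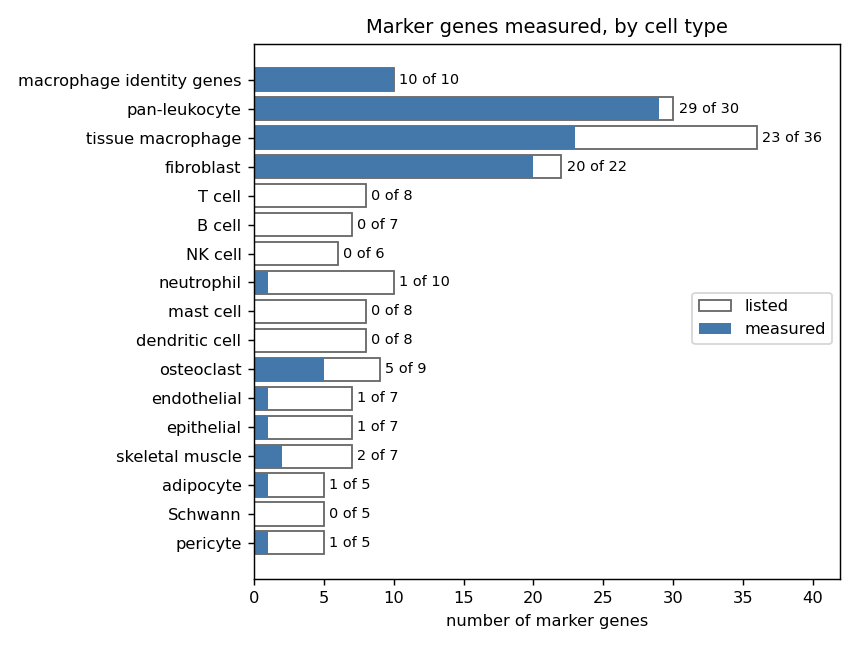
Number of marker genes on each list (open bars) and number measured among the 10697 genes (blue bars). All 10 macrophage identity genes and 20 of 22 fibroblast genes were measured, and 0 genes of the T cell, B cell, NK cell, mast cell and dendritic cell lists were.

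Thymol was next compared with DMSO. The fit covered all genes, and 238 of them (2.22%) passed. Of the 10 macrophage identity genes, 1 passed, *Mpeg1*, against this background of 2.22%. The means of 4 genes were higher and those of 6 were lower with thymol, and the median log2 fold change was -0.033, beside 0.0026 over all genes. The largest of the 10 differences in size was 0.21 on the log2 scale. Averaged over the 10 genes, the level was 8.45 ± 0.031 log2 CPM in DMSO libraries and 8.47 ± 0.048 in thymol libraries. Together the 10 genes took 1.51% ± 0.046 of the reads with DMSO and 1.59% ± 0.10 with thymol. Without *Lyz2*, the genes took 0.266% ± 0.010 of the reads with thymol, close to the 0.264% with DMSO. Unadjusted p-values under 0.05 were found for 4 of the 10 genes and for 11.8% of all genes.

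**Figure D3:**
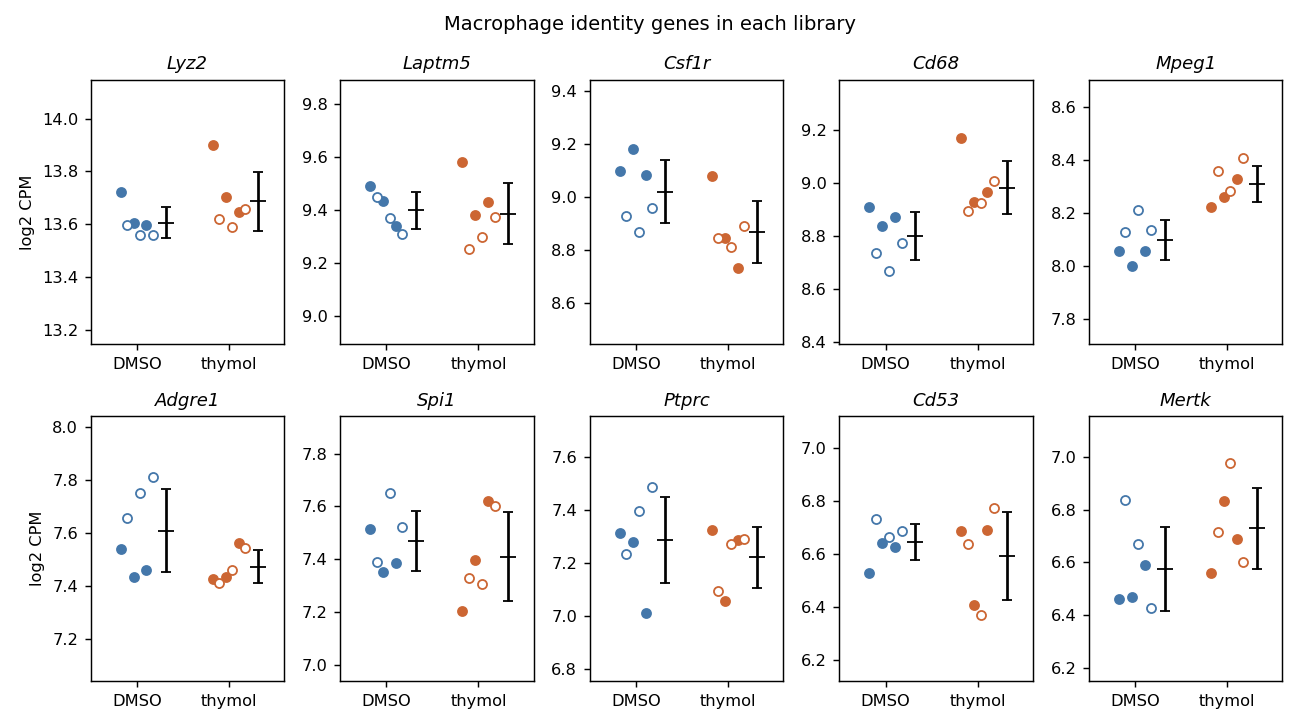
Level of each macrophage identity gene in every library (log2 CPM; each panel spans 1 log2 unit), with odd-numbered libraries as filled and even-numbered as open points, and the mean and SD of each group (n = 6) in black. The 6 thymol values of *Mpeg1* lay above the 6 DMSO values, and the groups overlapped for the other 9 genes.

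The transcription factor gene *Spi1* stood between 7.35 and 7.65 log2 CPM in DMSO and between 7.21 and 7.62 in thymol, and the groups overlapped widely. Its log2 fold change was -0.060 ± 0.069 (adjusted p = 0.83), with a 95% confidence interval from -0.20 to 0.079.

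Of the surface receptors, *Csf1r* had the lowest log2 fold change of the 10 genes. Its DMSO libraries ran from 8.87 (replicate 4) through a median of 9.02 to 9.18 log2 CPM (replicate 3). Its thymol libraries ran from 8.73 (replicate 5) through 8.85 to 9.08 (replicate 1). Without replicate 1 the highest thymol library was at 8.89, and 4 of the 6 thymol libraries lay below every DMSO library. The log2 fold change was -0.15 ± 0.056 (adjusted p = 0.187), with a 95% confidence interval from -0.27 to -0.040. Without thymol replicate 1 it was -0.20 and passed (adjusted p = 0.030).

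For *Adgre1*, the F4/80 receptor, the difference was -0.14 ± 0.065 on the log2 scale (adjusted p = 0.40). Its thymol libraries ran from 7.41 through a median of 7.45 to 7.56 log2 CPM, and its DMSO libraries from 7.43 through 7.60 to 7.81, so that the thymol values sat at the lower end of the DMSO range. For *Mertk* it was 0.15 ± 0.080 (adjusted p = 0.457), with thymol libraries from 6.56 through 6.70 to 6.97 log2 CPM and DMSO libraries from 6.43 through 6.53 to 6.84.

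The leukocyte surface genes *Ptprc* and *Cd53* differed by less than the SD of their DMSO libraries. *Ptprc* stood between 7.01 and 7.49 log2 CPM in DMSO and between 7.06 and 7.33 in thymol, a difference of -0.066 with an interval from -0.21 to 0.077. *Cd53* stood between 6.53 and 6.73 log2 CPM in DMSO and between 6.37 and 6.77 in thymol, a difference of -0.053 with an interval from -0.21 to 0.10. These intervals leave room for ratios between 0.866 and 1.07 and do not show that the levels were equal.

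The remaining 4 genes encode proteins of the lysosome and of the killing of engulfed microbes. *Mpeg1*, whose product inserts pores into engulfed bacteria, rose with thymol. Its DMSO libraries ran from 7.999 (replicate 3) through a median of 8.09 to 8.21 log2 CPM (replicate 4). The lowest thymol library, replicate 1, was at 8.22, the median at 8.30 and the highest, replicate 6, at 8.41. Every thymol library thus lay above every DMSO library, and groups that did not overlap were found for 1.68% of all genes. The group means were 8.10 ± 0.076 log2 CPM for DMSO and 8.31 ± 0.068 for thymol. The log2 fold change was 0.21 ± 0.055 (adjusted p = 0.021), with a 95% confidence interval from 0.10 to 0.32, or a ratio of 1.16. The gene no longer passed without the mean-variance trend in limma (adjusted p = 0.18). It was also lost without DMSO replicate 1 (0.20, adjusted p = 0.053), 3 (0.19, 0.069) or 5 (0.20, 0.054) and without thymol replicate 2 (0.20, 0.059) or 6 (0.19, 0.082).

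*Cd68* followed *Mpeg1* in size. Its DMSO libraries ran from 8.67 (replicate 4) through a median of 8.81 to 8.91 log2 CPM (replicate 1). Its thymol libraries ran from 8.90 (replicate 2) through 8.95 to 9.17 (replicate 1). The groups overlapped by a single pair of libraries, and 5 of the 6 thymol libraries lay above every DMSO library. The log2 fold change was 0.18 ± 0.054 (adjusted p = 0.055), with a 95% confidence interval from 0.075 to 0.29. It passed without DMSO replicate 1 (0.20, adjusted p = 0.037) or thymol replicate 4 (0.19, 0.049), and without thymol replicate 1, the highest library, it was 0.14 (0.156).

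*Lyz2*, whose enzyme digests bacterial walls, stood at 13.56 to 13.72 log2 CPM in DMSO (median 13.60) and at 13.59 to 13.90 in thymol (median 13.65). Its log2 fold change, 0.080 ± 0.046 (adjusted p = 0.54), was 0.037 without thymol replicate 1. *Laptm5*, at 9.31 to 9.49 log2 CPM in DMSO and 9.25 to 9.58 in thymol, differed least of the 10, by -0.013 with an interval from -0.12 to 0.091, and its sign turned when single libraries were left out.

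**Figure D4:**
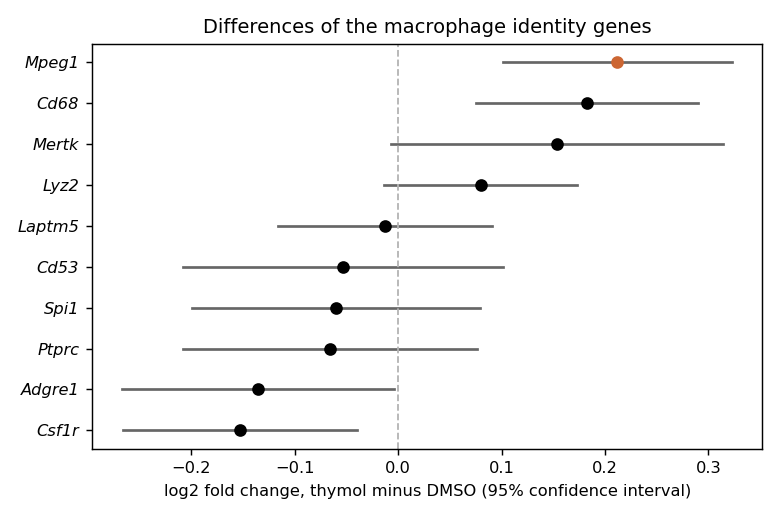
Log2 fold change of each macrophage identity gene, thymol minus DMSO (points), with its 95% confidence interval from limma (lines). *Mpeg1*, in orange, was the one gene past the adjusted threshold, and the points ran from -0.15 for *Csf1r* to 0.21 for *Mpeg1*.

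Some of the spread within the DMSO group went with the library number. With 3 libraries against 3, some genes separate in this way by chance alone. In DMSO, the 3 odd-numbered and the 3 even-numbered libraries did not overlap for 6 of the 10 genes, beside 14.6% of all genes. *Csf1r*, *Cd68* and *Lyz2* were higher in the odd-numbered libraries and *Adgre1*, *Cd53* and *Mpeg1* in the even-numbered ones. *Csf1r* averaged 9.12 log2 CPM in odd-numbered and 8.92 in even-numbered DMSO libraries, and *Adgre1* 7.48 and 7.74. In thymol, 1 of the 10 genes was separated in this way, *Laptm5*, beside 8.68% of all genes. The labels attach no batch or date to the number. The library names run in turn through odd-numbered thymol, even-numbered thymol, odd-numbered DMSO and even-numbered DMSO libraries. What that order reflects is not stated, and it cannot be told apart from the treatment. Within the odd-numbered libraries the log2 fold change of *Mpeg1* was 0.23 and within the even-numbered ones 0.19. For *Cd68* these were 0.15 and 0.22, for *Csf1r* -0.24 and -0.070, and for *Adgre1* -0.0030 and -0.27. In the odd-numbered libraries alone, with 3 per group, 0 of the 10 genes passed in limma, beside 70 of all 10697 genes. In the even-numbered ones 0 passed, beside 167 of all genes. An unadjusted p-value under 0.05 was found for 2 of the 10 in the odd-numbered libraries and for 3 in the even-numbered ones. The share of all genes with such a p-value in these fits is not given here. When a term for odd against even numbers was added to the fit of all libraries, *Mpeg1* (adjusted p = 0.012) and *Cd68* (adjusted p = 0.030) passed. In that fit 277 of all genes passed. Whether odd- and even-numbered libraries differed in their response was not tested.

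The 10 genes did not all follow a single course from library to library. After the group means were subtracted, the 45 pairs of genes had a median Pearson correlation of 0.044 over the 12 libraries, and 25 pairs were positive. The highest was 0.86, between *Lyz2* and *Laptm5*, and the lowest -0.72, between *Csf1r* and *Mpeg1*. The pairs among *Lyz2*, *Laptm5*, *Csf1r* and *Cd68* ran from 0.50 to 0.86, and those among *Mpeg1*, *Adgre1* and *Spi1* from 0.65 to 0.74. Pairs between these sets ran from -0.72 to -0.16. The sets were picked after the values were seen. The DMSO libraries among them hold the odd and even pattern above, so the correlations describe the libraries and carry no p-value. Among 5384 other genes with a mean of at least 5 log2 CPM, the 5 that followed the mean of the 10 genes most closely in this way were *Hgsnat* (r = 0.89), *Msmo1* (0.86), *Smpdl3a* (0.86), *Tbc1d20* (0.85) and *Ei24* (0.85). These 5 were picked as the highest of 5384 values, which raises them and makes them no test. The identity genes, which make up the mean and were not picked in this way, had a median correlation of 0.42 with it.

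Genes around CSF1R were then examined by role. Of its 2 ligands, *Csf1* was abundant, at 10.42 ± 0.094 log2 CPM in DMSO libraries and 10.46 ± 0.14 in thymol libraries (adjusted p = 0.84). *Il34* was low at 1.99 ± 0.76 in DMSO, a mean of 29.2 reads. *Tyrobp*, an adaptor that carries signals of myeloid receptors, was at 8.45 ± 0.045 log2 CPM in DMSO libraries and 8.50 ± 0.035 in thymol libraries. Of 27 listed ligands, adaptors and kinases of CSF1R signaling 26 were measured. Of these 26 genes 0 passed in limma and 0 in voom, beside 2.22% of all genes in limma. An unadjusted p-value under 0.05 was found in limma for 5 of the 26, beside 11.8% of all genes. Their log2 fold changes ranged from -0.35 (*Stap1*, adjusted p = 0.12) to 0.30 (*Dok1*, adjusted p = 0.138).

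Transcription factors that work with PU.1 in myeloid cells were next. Of 21 such factors 16 were measured, 0 passed in limma or voom (2.22% of all genes in limma), and 5 had an unadjusted p-value under 0.05 (11.8% of all genes). *Maf*, a regulator of mature macrophages, was the most abundant at 9.05 ± 0.070 log2 CPM with DMSO (log2 fold change -0.12, adjusted p = 0.326). *Id2*, an inhibitor of other factors, was at 8.37 ± 0.082 log2 CPM. *Irf8*, a partner of PU.1, differed by 0.24 on the log2 scale (adjusted p = 0.079) and *Cebpa*, which commits progenitors to the myeloid line, by 0.28 (adjusted p = 0.13), and neither passed.

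Other genes of leukocytes and tissue macrophages did pass. Of the 29 measured leukocyte genes 2 passed (6.90%, beside 2.22% of all genes). *Cybb* was higher with thymol, at 9.19 ± 0.038 against 8.96 ± 0.13 log2 CPM (adjusted p = 0.0061). *Srgn*, the core protein of granule proteoglycans, was lower with thymol, at 5.27 ± 0.24 against 5.74 ± 0.22 log2 CPM (adjusted p = 0.0070).

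Of 36 genes that mark tissue macrophages 23 were measured, and 8 of these passed (34.8%, beside 2.22% of all genes), 3 higher and 5 lower with thymol. This and the other lists were written with earlier results of these data known. The choice of genes can raise such a share, which describes the listed genes and is no test of them. The median log2 fold change of the 23 genes was -0.085. Without the mean-variance trend 0 of the 23 passed in limma, beside 57 of all 10697 genes. An unadjusted p-value under 0.05 was found for 12 of the 23 without the trend. With the trend it was found for 12 as well, beside 11.8% of all genes. In the odd-numbered libraries alone 4 passed, beside 70 of all genes, and in the even-numbered ones 5, beside 167. With a single library left out 6 to 10 passed, beside 172 to 270 of all genes. Among the rises, *Gpnmb*, a glycoprotein of lysosome-rich macrophages, was at 11.23 ± 0.077 log2 CPM with thymol against 10.92 ± 0.13 with DMSO, a difference of 0.31 ± 0.049 (adjusted p = 3.2e-05). *Ctss*, the lysosomal protease cathepsin S, was at 10.35 ± 0.094 log2 CPM with thymol against 10.09 ± 0.032 with DMSO (adjusted p = 0.00014). The groups did not overlap for either gene. *Folr2*, a folate receptor of resident macrophages, had the largest rise at 0.58 ± 0.14 (adjusted p = 0.0079), which no longer passed without thymol replicate 6 (0.48, adjusted p = 0.066).

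The other 5 genes of this list that passed were lower with thymol. *Cd300ld*, a receptor of myeloid cells, fell most, with -0.48 ± 0.091 on the log2 scale (adjusted p = 0.00048). *Itgam*, the integrin subunit CD11b, was at 7.74 ± 0.10 log2 CPM with thymol against 8.05 ± 0.068 with DMSO (adjusted p = 0.00071), and its groups did not overlap. The tetraspan genes *Ms4a6c* (-0.39, adjusted p = 0.0069) and *Ms4a6d* (-0.34, adjusted p = 0.0024) fell as well. *Tmem119*, known as a marker of microglia and also made by cells that form bone, had -0.33 (adjusted p = 0.038) and lost the call in 9 of 12 fits that each left out 1 library, which were those without DMSO replicates 1, 3, 4 and 6 and without thymol replicates 1, 2, 3, 5 and 6, over a range of -0.35 to -0.29. The mannose receptor gene *Mrc1* (-0.20, adjusted p = 0.157) and the scavenger receptor gene *Msr1* (-0.25, adjusted p = 0.079) did not pass.

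**Figure D5:**
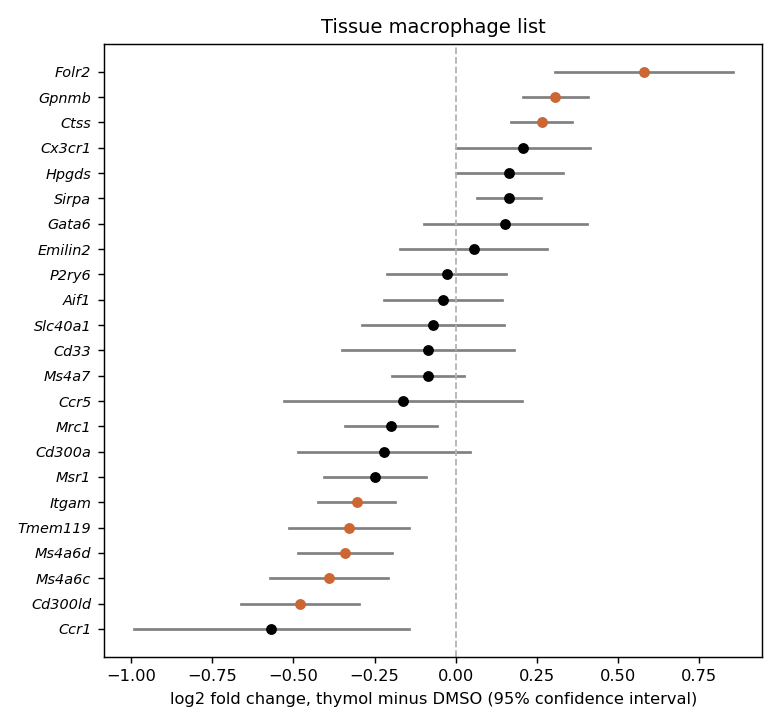
Log2 fold change, thymol minus DMSO, of the 23 measured genes of the tissue macrophage list (points) with 95% confidence intervals from limma (lines), orange where the adjusted p-value was under 0.05. *Folr2*, *Gpnmb* and *Ctss* were higher and *Itgam*, *Tmem119*, *Ms4a6d*, *Ms4a6c* and *Cd300ld* lower.

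MERTK belongs to a machinery that clears dead cells. Of 23 genes of that machinery 20 were measured and 1 passed (5.0%, beside 2.22% of all genes). That gene, *Mfge8*, a secreted bridge between dead cells and integrins, was higher with thymol, at 10.56 ± 0.084 against 10.32 ± 0.077 log2 CPM (adjusted p = 0.00074). The sister kinase *Axl* was far more abundant than *Mertk*, at 9.56 ± 0.037 log2 CPM with DMSO, and *Tyro3* was lower, at 4.16 ± 0.40. Their ligand *Gas6* was at 8.22 ± 0.11 log2 CPM and had a log2 fold change of 0.10 (adjusted p = 0.479).

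Relatives of the 10 genes by protein family were mostly genes that many cell types use. Of 30 such genes 22 were measured and 2 passed (9.09%, beside 2.22% of all genes). *Ets2*, an ETS factor like *Spi1*, fell by 0.50 ± 0.080 on the log2 scale (adjusted p = 3.3e-05), and *Cd9*, a tetraspanin like *Cd53*, rose by 0.26 (adjusted p = 0.024). The call of *Cd9* was lost in 6 of 12 fits that each left out 1 library, which were those without DMSO replicate 1, 4 or 5 and without thymol replicate 2, 5 or 6 (0.22 to 0.25). The highest of the relatives was the tetraspanin *Cd63* at 11.87 ± 0.070 log2 CPM with DMSO (log2 fold change 0.11, adjusted p = 0.225), followed by *Lamp1*, a lysosomal membrane protein related to *Cd68*, at 10.56 ± 0.054 (adjusted p = 0.998).

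Averaged over the fibroblast list, the level was 7.44 ± 0.043 log2 CPM in DMSO libraries and 7.36 ± 0.043 in thymol libraries. Of its 20 measured genes 2 passed (10.0%, beside 2.22% of all genes), *Col1a1* (-0.28, adjusted p = 2.9e-05) and *Col3a1* (-0.54, adjusted p = 4.4e-10), both lower. *Col1a1* no longer passed without the mean-variance trend (adjusted p = 0.066) or in the odd-numbered libraries alone (adjusted p = 0.068). Whether these shifts in fibroblast genes bear on the values of the macrophage identity genes was not tested.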

How the data were processed

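QuantSeq 3′ libraries were made from total RNA of 12 samples, 6 with DMSO and 6 with thymol. The authors aligned reads to GRCm38 with STAR and counted them per gene with HTSeq (versions 2.5.3 and 0.6.1 in the submitters' processing notes). They required 30 reads or more in 6 or more libraries and applied TMM scaling. The deposited values are log2 CPM, offset by a small prior count of about 1.96 reads, which shrinks differences of low genes. Whole reads were recovered from the equal steps of the unlogged values, and of those below 200 reads 100% came within 0.02 of an integer. Every column was used.

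The authors fitted a quasi-likelihood model to counts. Because the table holds log2 values, limma 3.58.1 (R 4.3.3) was fitted to the log2 values, with a mean-variance trend, both groups of 6 and no covariate, two-sided, with Benjamini-Hochberg adjustment over 10697 genes. The fit was tested on simulated data beforehand. No further filter was used. Genes named are the 10 identity genes, the 3 smallest p-values among called genes and the 2 highest levels of each list, and the 5 genes most like the identity genes. Others were named for their roles after their values were seen. The genes and lists were chosen with earlier results of these data known. Sequences are from RefSeq and gene positions from GENCODE vM21. Alternatives covered the variance model, blocking, scaling, pseudocounts, a level filter, odd- or even-numbered libraries and each library left out.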

Additional observations from a re-analysis of the deposited data

Results flagged for a closer look

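Dixon's criterion at its 95% critical value asks whether 1 library stands off from the other 5 of its group. It was applied to 24 sets of 6 libraries (the 10 genes, their mean and the read totals, in both groups). Chance marks about 1 group in 20, here 1.2, and 3 were marked. *Lyz2* was at 13.72 log2 CPM in DMSO replicate 1, with the next DMSO library at 13.60. *Lyz2* was at 13.90 log2 CPM in thymol replicate 1, with the next thymol library at 13.70. Thymol replicate 5 had 9049796 recovered reads, with 6585162 in the next deepest thymol library. What set these libraries apart was not tested.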

How the results depend on the processing

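Of the 10 macrophage identity genes, 2 passed (*Mpeg1* and *Cd68*) with robust variance estimates, with the replicate block, with a term for odd against even numbers, with limma's voom on recovered reads, with a pseudocount of 10 CPM, with quantile normalization and with genes limited to a mean of at least 3. In limma 0 passed without the mean-variance trend (2 with an unadjusted p-value under 0.05), 0 in the odd-numbered libraries alone (2) and 0 in the even-numbered ones alone (3), and 0 to 2 passed when a library was left out. Over all genes, 238 passed in the main fit, 57 without the trend and 332 with the replicate block. With robust variance estimates 253 passed, with the term for odd against even numbers 277, and with voom 238. With a pseudocount of 10 CPM 262 passed, with quantile normalization 239, and among genes with a mean of at least 3, 251. Unadjusted p-values of all genes are given for the main fit alone. With a library left out 172 to 270 passed, with odd-numbered libraries alone 70, and with even-numbered ones alone 167. The 6 macrophage-related lists held 136 distinct measured genes. Of these 136 genes, 13 passed in the main fit, beside 2.22% of all genes. An unadjusted p-value under 0.05 was found there for 41, beside 11.8% of all genes. Without the trend 0 of the 136 passed and 36 had such a p-value. With a library left out 10 to 16 passed, with odd-numbered libraries alone 4, and with even-numbered ones alone 7. The median log2 fold change of the 10 genes was 0.033 in the odd-numbered libraries, -0.069 in the even-numbered ones and -0.047 to -0.0017 with a library left out. In the odd-numbered libraries *Ptprc* was 0.022 and *Laptm5* 0.043, opposite in sign to the fit of all libraries. *Laptm5* was also positive without DMSO replicate 1 (0.0054), thymol replicate 2 (0.014) or thymol replicate 4 (0.0047), with a range of -0.052 to 0.014 over all fits that left out 1 library. The mean DMSO level of the 10 genes, 8.45 log2 CPM, was 8.52 with a pseudocount of 10 CPM and 3.42 above the median when libraries were centred. These changes of level follow directly from how the settings alter each value. The cause of the other shifts was not tested. The deviations of libraries with the same replicate number had correlations of 0.27 for number 1, 0.11 for number 4 and -0.051 to 0.054 for the other numbers, over genes with a mean of at least 5. Since not every number gave a correlation over 0.1, the number was not taken as a pairing. Replicate number as a block changed no other call among the 10 genes than that of *Cd68* (adjusted p = 0.015 in limma). Fits on odd- or even-numbered libraries hold 3 per group.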

Other observations

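Osteoclasts arise from the same lineage as macrophages. Of 9 osteoclast genes 5 were measured, 0 passed in limma or voom (2.22% of all genes in limma) and 3 had an unadjusted p-value under 0.05 (11.8% of all genes), with *Ctsk*, the collagen-degrading cathepsin K that fibroblasts also make, as the highest at 5.99 ± 0.20 log2 CPM in DMSO libraries and 6.24 ± 0.18 in thymol libraries (SD over 6). *Nfatc1* was at 4.73 ± 0.24 log2 CPM with DMSO.

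Of 36 distinct markers of endothelial, epithelial, skeletal muscle, adipocyte, Schwann and pericyte cells 6 were measured. These were *Cdh5* at 1.86, *Krt19* at 2.93, *Des* at 3.02, *Cspg4* at 3.73, *Fabp4* at 6.38 and *Acta1* at 7.11 log2 CPM with DMSO. *Acta1*, skeletal muscle actin, was the one that passed, with a log2 fold change of -0.45 (limma adjusted p = 5.0e-05).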
